A study of Mus musculus with 5 samples.

Results

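The nuclear receptor genes followed here are 42 named mouse genes, chosen by name. Esrrb, Nr5a2, Nr0b1 and Hnf4a were left out of the list, so no count or median here covers them. They include the receptors of retinoic acid, fatty acids, thyroid hormone, vitamin D, oestrogen and steroid hormones, and orphan receptors of the clock, NR2, NR4A, NR5, NR6 and NR0 families. Every peak of KLF5, a Krüppel-like zinc-finger transcription factor, was collected whose summit lay inside one of these genes or within 10 kb of either end. All 42 matched the RefSeq table of 21887 protein-coding genes on assembled chromosomes, and none of them lies on chromosome X or Y. The data are ChIP-seq, in which cross-linked chromatin is precipitated with an antibody and the recovered DNA is sequenced.

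The main library is an anti-V5 immunoprecipitate of embryonic stem (ES) cells from C57B6/J mice, wild type apart from overexpression of KLF5 with the V5 epitope tag. Its controls are a normal mouse IgG immunoprecipitate of the same cells and an anti-V5 immunoprecipitate of wild-type ES-D3 cells, an established mouse ES line without the tag. Each immunoprecipitate was set against input DNA of its own cells, and each group was 1 library, so no value here has a replicate check. The labels do not name the promoter of the tagged KLF5, and binding of KLF5 at its natural level and expression of the receptor genes were not analysed here. The header of the untagged list names another ES line than the label, so which line that control is remains uncertain. Tags left after duplicate removal numbered 23.2 M for anti-V5 in V5-KLF5 cells, 24.5 M for IgG and 21.8 M for anti-V5 in untagged cells. The main library gave 45366 peaks on assembled chromosomes, against 3 in all for IgG and 0 for the untagged cells. None of the 42 genes had a peak in either control.

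Nuclear receptors are transcription factors that carry a zinc-finger DNA-binding domain and a domain that binds a small lipophilic ligand. Many of them pair with a retinoid X receptor on DNA, recruit corepressors without ligand and exchange them for coactivators with it. In ES cell culture, retinoic acid is a classic signal for exit from pluripotency, and several orphan receptors belong to the network that controls ES cell identity. KLF and SP factors are known to bind GC boxes and CACCC boxes.

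The summits at some receptor promoters lay in the sequence just before the start of transcription. The first 4 lines below give the 250 bases before the start site at the members with the strongest summits inside that stretch, and the last lines give the same stretch at genes without any peak. Sequences are from RefSeq (GRCm38.p6, the assembly that mm10 names), run 5′ to 3′ in the direction of transcription, and have capitals at the letters CCACCC or CCGCCC on either strand (GGGTGG or GGGCGG on the printed one).
Ppard, chr17:28232504-28232753, plus strand, summit 114 bases before the start: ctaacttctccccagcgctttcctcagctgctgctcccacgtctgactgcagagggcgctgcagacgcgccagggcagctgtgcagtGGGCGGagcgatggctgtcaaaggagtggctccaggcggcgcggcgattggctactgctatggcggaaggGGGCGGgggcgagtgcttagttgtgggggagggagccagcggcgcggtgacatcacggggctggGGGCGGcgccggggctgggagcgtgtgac
Nr1d2, chr14:18239107-18239356, minus strand, summit 144 bases before the start: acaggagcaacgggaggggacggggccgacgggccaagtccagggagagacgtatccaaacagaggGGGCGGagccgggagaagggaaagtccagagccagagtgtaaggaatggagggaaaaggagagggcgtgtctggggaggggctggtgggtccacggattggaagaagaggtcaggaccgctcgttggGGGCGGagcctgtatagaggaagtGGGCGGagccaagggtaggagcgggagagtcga
Nr4a1, chr15:101266596-101266845, plus strand, summit 61 bases before the start: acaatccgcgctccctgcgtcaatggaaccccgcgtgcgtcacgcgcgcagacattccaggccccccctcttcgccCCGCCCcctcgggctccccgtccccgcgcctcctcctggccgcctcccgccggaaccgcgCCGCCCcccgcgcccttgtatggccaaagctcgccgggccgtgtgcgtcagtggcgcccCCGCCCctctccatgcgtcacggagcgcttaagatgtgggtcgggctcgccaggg
Rara, chr11:98937446-98937695, plus strand, summit 198 bases before the start: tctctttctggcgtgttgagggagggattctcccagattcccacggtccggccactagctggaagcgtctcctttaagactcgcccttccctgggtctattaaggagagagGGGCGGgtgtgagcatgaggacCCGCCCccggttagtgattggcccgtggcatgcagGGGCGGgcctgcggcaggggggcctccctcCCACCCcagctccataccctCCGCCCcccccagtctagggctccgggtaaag
Thrb, chr14:17660710-17660959, plus strand, no peak: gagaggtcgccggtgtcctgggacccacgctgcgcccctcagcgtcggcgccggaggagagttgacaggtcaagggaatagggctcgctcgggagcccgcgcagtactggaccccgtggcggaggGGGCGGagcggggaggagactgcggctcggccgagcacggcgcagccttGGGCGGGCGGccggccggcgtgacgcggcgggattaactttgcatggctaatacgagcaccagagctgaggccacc
Rorb, chr19:19111197-19111446, minus strand, no peak: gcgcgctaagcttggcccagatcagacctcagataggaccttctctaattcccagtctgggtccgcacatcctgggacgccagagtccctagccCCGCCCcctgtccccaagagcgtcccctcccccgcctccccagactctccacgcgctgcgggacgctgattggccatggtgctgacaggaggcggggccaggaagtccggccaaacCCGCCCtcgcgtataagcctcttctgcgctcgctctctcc
Nr1i2, chr16:38294825-38295074, minus strand, no peak: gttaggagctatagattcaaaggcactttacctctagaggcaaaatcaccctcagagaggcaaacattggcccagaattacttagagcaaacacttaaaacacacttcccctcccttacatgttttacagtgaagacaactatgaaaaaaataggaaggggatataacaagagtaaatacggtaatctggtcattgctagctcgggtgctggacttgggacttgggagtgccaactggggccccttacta

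A V5-KLF5 peak was found at 38 of the 42 receptor genes (90.5%, exact 95% Clopper-Pearson interval 77.4 to 97.3), against 70.5% of all protein-coding genes by the same rule. The members without one were Thrb, Rorb, Nr1i2 and Hnf4g. The share of all genes was 73.0% on autosomes alone. Gene length matters for this comparison, because a long gene offers more room for a summit and the receptor genes were longer, with a median of 46.8 kb against 17.2 kb. All genes weighted to the receptors' length classes gave 77.6%, which still lies within the counting interval of the receptors' share at its low end. Genes are not replicates of a condition, so these shares describe lists within 1 library.

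Below 100 kb receptor genes had the higher share in each length class, and above it the lower. All 7 receptor genes under 10 kb and all 10 of 10 to 30 kb had a peak, against 52.8% and 75.6% of all genes in those classes. Of the 14 receptor genes of 30 to 100 kb, 13 had a peak, against 83.3% of all genes. Among the 11 receptor genes of 100 kb or more, 8 had a peak (72.7%), against 87.9% of all genes. Peaks per gene followed the same order, with means of 3.43 at receptor genes and 1.40 at all genes under 10 kb, but 2.45 at receptor genes and 4.16 at all genes of 100 kb or more. Summed over all windows, the receptor genes held 0.254 peaks per 10 kb and all genes 0.327. The median per gene stood in the other order, with 0.475 peaks per 10 kb at receptor genes and 0.300 at all genes.

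The 38 genes held 147 gene and peak pairs made by 143 peaks, because 4 peaks were within reach of a pair of members. Counts ran from 1 peak, at 11 genes, to 10 at Rora, a gene of 734843 bp. There were 12 receptor genes with 5 or more peaks (28.6%), against 14.3% of all genes, a share not weighted by gene length. For 31 of the 147 pairs, another protein-coding gene lay nearer to the summit, and at Nr2e3, Nr1i3 and Nr0b2 this held for every peak. The outermost summit counted lay 9872 bp beyond Rora with a fold enrichment of 4.64, and the nearest one not counted lay 10084 bp beyond Esrra with 4.76.

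Strength is given as the authors' fold enrichment over input at the summit, a value of each peak that is used here only to rank peaks within this list. The strongest peak per receptor gene had a median fold enrichment of 6.65 over 38 genes (exact order-statistic interval 5.61 to 10.1), and that of all genes with a peak had 7.71. These medians stood in the other order under 3 of the alternative settings. They were 9.84 for receptor genes and 8.95 for all genes with peaks of a −log10 q of at least 10, 9.58 and 8.75 with peaks of a fold enrichment of at least 5, and 10.2 and 10.0 with a window of 50 kb. At least 1 peak of 10 or more was present at 13 of 42 receptor genes (31.0%), against 22.2% of all genes and 25.3% of all genes weighted to the receptors' length classes. The receptor peaks had a median pileup of 24 tags and a median input background of 3.32, against 3.45 under all peaks. The background under 7 of the 143 was equal, to 3 digits, to the 95th percentile of all peaks (6.13) or above it, and the highest was 6.90. The most frequent background over all peaks, 3.1, was a floor and not a local input count. The strongest peaks of Nr1d2, Nr4a1, Ppard, Ppara and Nr1h2 stood on this floor, so their fold enrichments follow from the pileup alone.

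**Figure D1:**
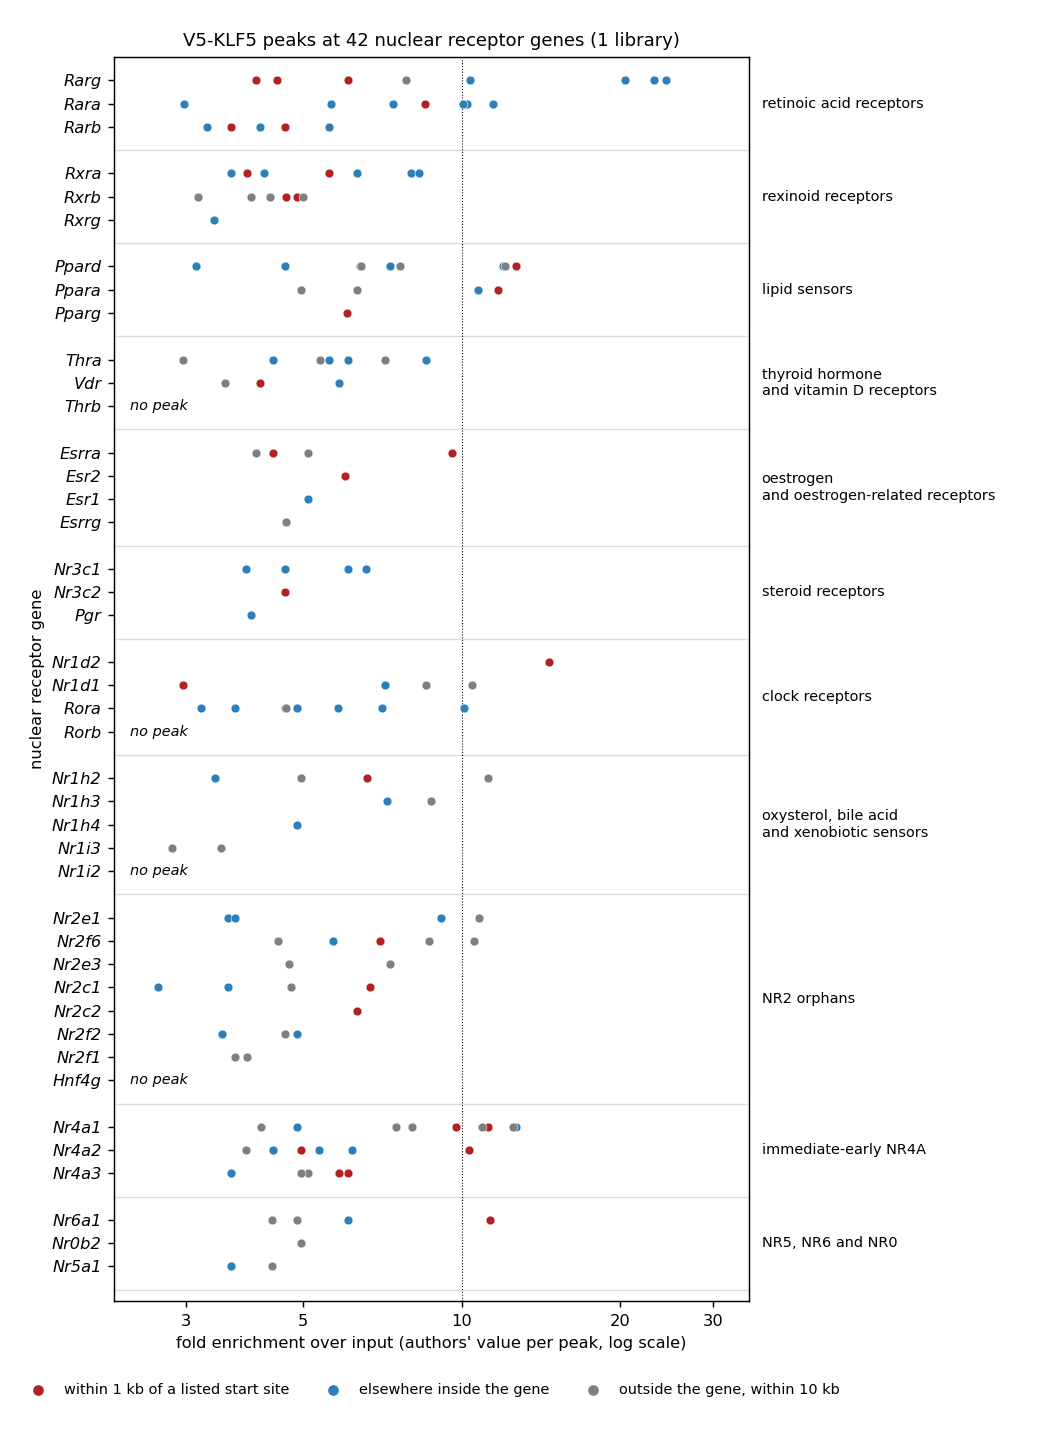
Fold enrichment over input (log scale) of every V5-KLF5 peak at the 42 receptor genes, grouped by role, with colours for the place of the summit and a dotted line at 10. The 3 highest points, between 20.4 and 24.4, belong to Rarg, and 4 genes have no point.

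**Figure D2:**
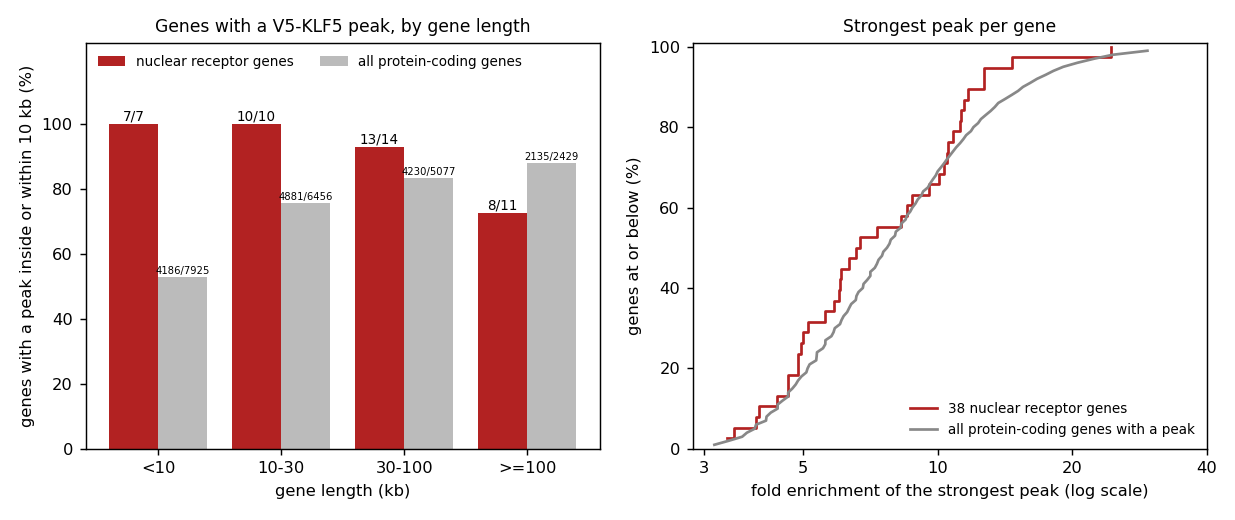
Left, percent of genes with a peak by gene length, for receptor genes (red, left bars) and all protein-coding genes (grey), with counts above the bars; the receptor bars are the higher ones below 100 kb and the lower one above. Right, cumulative share of genes by the fold enrichment of their strongest peak (log scale); the receptor curve has a median of 6.65 against 7.71 for all genes.

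Among the retinoic acid receptor genes, Rarg carried the strongest peak of all 42 members, while the strongest of Rara and Rarb ranked 6 and 26. Rarg, which encodes the gamma receptor, had 8 peaks with summits over 26.3 kb of chromosome 15, and 4 of them had a fold enrichment of at least 10. The strongest, at 102242970 to 102244034, had a fold enrichment of 24.4, a pileup of 108 tags (exact Poisson interval 88.6 to 130) and a −log10 q of 114. This peak stood at the 97.8 percentile of the strongest peaks of all genes. Its neighbour at 102240232 to 102241017 had 23.1 and 105 tags. Another peak, at 102245996 to 102250962, had 20.4 and was 4967 bp long, which made it the longest of all 45366 peaks, ahead of 4230 bp for the next. It overlapped the second start site listed for Rarg at 102246500, although its summit lay 2959 bp before that site.

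The first start site of Rarg had weaker summits, with fold enrichments of 6.10 at 296 bp after it and 4.46 at 680 bp before it. The 3 summits above 20 thus lay inside the gene, 8063 to 16830 bp from its 5′ end. Rara, which encodes the alpha receptor, also had 8 peaks, all of them inside the gene. The strongest, on chromosome 11 at 98941308 to 98942456, lay 1918 bp after a start site, and equally inside the predicted gene Gm46294, with a fold enrichment of 11.5, 50 tags (37.1 to 65.9) and a −log10 q of 36.8. Another 3 Rara peaks stood at 10.2, 10.2 and 10.1, of which 1 lay 198 bp before the first listed start site, in the stretch printed above. Rarb, the beta receptor gene and itself a known target of retinoic acid, had 5 weaker peaks from 3.30 to 5.61 along its 651493 bp. The summits beside its start site, 207 bp before and 237 bp after, had 4.64 and 3.66.

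Genes of the retinoid X receptors, the common partners of other receptors, had no peak with a fold enrichment of 10. Rxra, the alpha receptor gene, had 7 peaks from 3.66 to 8.30, the strongest 43314 bp from its 5′ end. Rxrb, the beta receptor gene, had 6 from 3.17 to 5.00, of which 5 lay nearer to another gene (Ring1, H2-Ke6, Slc39a7 or Col11a2). Of these 5, the summit of 4.87 lay 150 bp before the first listed Rxrb start site. The remaining peak, of 4.65, lay 26 bp after the second. Rxrg, the gamma receptor gene, had 1 peak of 3.39, the weakest strongest peak of all 38 members, and none near its start sites. Within the pairing of both families the RAR genes thus had strongest peaks of 24.4, 11.5 and 5.61, and the RXR genes 8.30, 5.00 and 3.39.

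**Figure D3:**
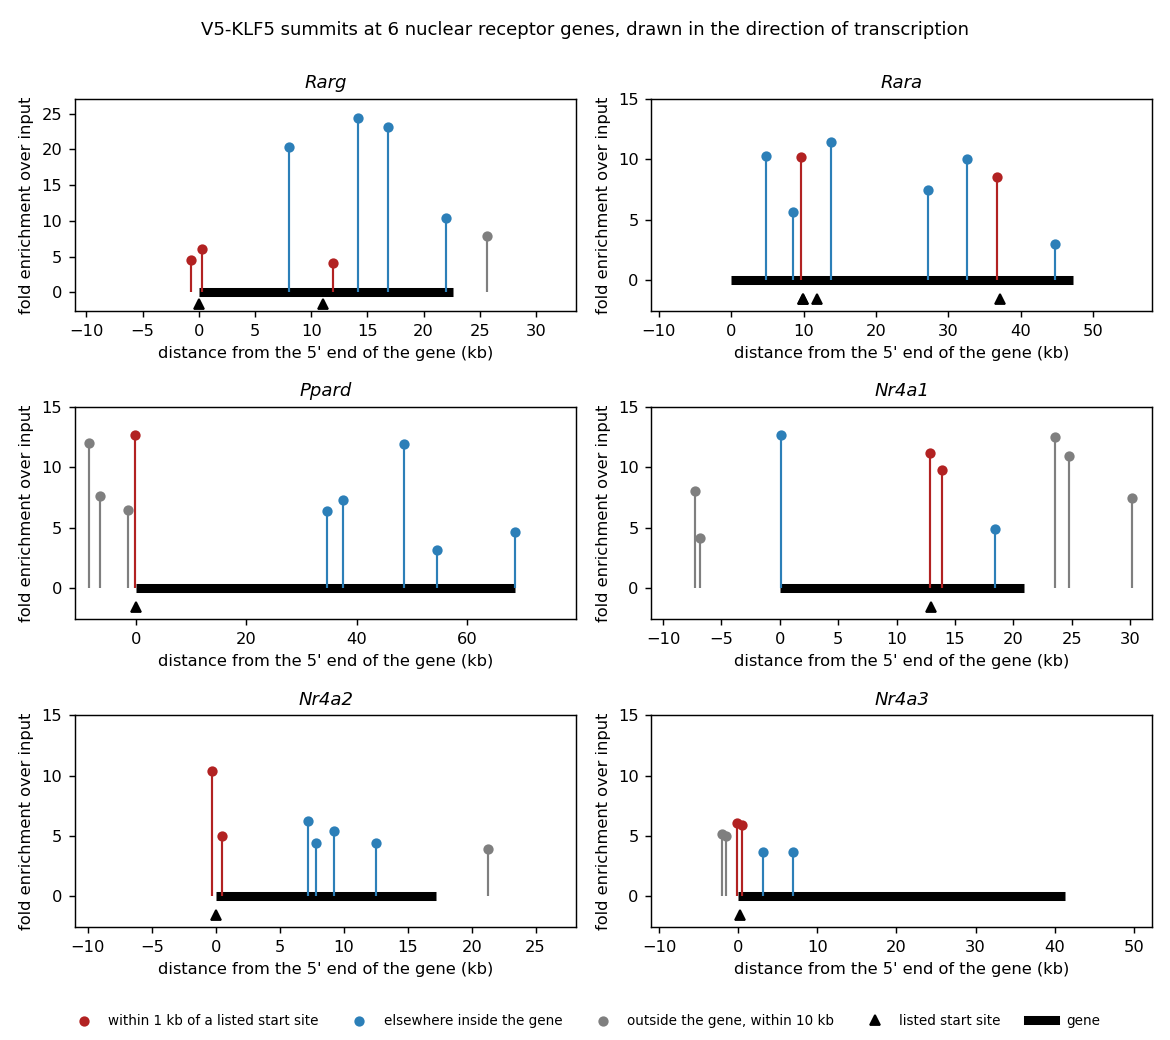
Fold enrichment over input of each V5-KLF5 summit at 6 receptor genes against its distance in kb from the 5′ end of the gene, drawn in the direction of transcription, with the gene as a black bar and listed start sites as triangles. At Rarg the 3 summits above 20 lie inside the gene, whereas at Ppard and Nr4a2 the highest lies within 1 kb of the start site.

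The peroxisome proliferator-activated receptors sense fatty acids, and their genes were marked at start sites in all 3 cases. Ppard, which encodes the delta receptor, had 9 peaks, and its strongest on chromosome 17 at 28232391 to 28232848 lay 114 bp before the start site, with a fold enrichment of 12.7, 51 tags (38.0 to 67.1) and a −log10 q of 40.2. Ppard also had 12.1 at a summit 8460 bp before the gene, which lay nearer to Def6, and 11.96 at a summit 48468 bp inside it. Ppara, the alpha receptor gene of fatty acid oxidation, reached 11.7 on chromosome 15 at 85734575 to 85736169, with 47 tags (34.5 to 62.5) and a −log10 q of 35.4, 434 bp before its start site. A further Ppara peak inside the gene, 59917 bp from the start site, had 10.7. Pparg, the gene of the fat cell regulator, had 1 peak of 6.06 over 129526 bp, 213 bp before the second of its 3 listed start sites.

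The immediate-early NR4A genes encode orphan receptors that many cells induce within minutes of a stimulus. All 3 had 5 or more peaks, as did 12 of the 42 receptor genes in all and 14.3% of all genes, not weighted by length. Nr4a1 had 9, with a strongest fold enrichment of 12.7 on chromosome 15 at 101253798 to 101254631, 51 tags (38.0 to 67.1) and a −log10 q of 40.2. That summit lay 96 bp inside the 5′ end of the gene but 12848 bp before the start site listed for it, where another peak had 11.2. Beyond the 3′ end stood peaks of 12.5 and 10.9 with 98 and 77 tags, on input backgrounds of 6.90 and 6.13, among the highest under receptor peaks. Nr4a2, a gene needed for midbrain dopamine neurons, had 7 peaks. Its strongest, on chromosome 2 at 57124100 to 57124568, lay 321 bp before the start site with 10.3, 49 tags (36.3 to 64.8) and a −log10 q of 33.6, and nearer to the predicted gene LOC105244150. Nr4a3 had 6 peaks from 3.66 to 6.10, whose summits spanned 8.98 kb around its start site.

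Clock receptors bind shared response elements as repressors (REV-ERB) or activators (ROR). Nr1d2, which encodes REV-ERB beta, had 1 peak only, and it was the second strongest among all members. It lay on chromosome 14 at 18238194 to 18239666, 144 bp before the start site, with a fold enrichment of 14.6, 59 tags (44.9 to 76.1) and a −log10 q of 50.1. Its paralogue Nr1d1, the REV-ERB alpha gene, had 2.96 at its start site and 10.5 at a summit 5703 bp before it, on chromosome 11 at 98780847 to 98781393, with 42 tags (30.3 to 56.8) and a −log10 q of 29.7. Rora had 10 peaks spread over 743.2 kb, with a strongest of 10.1 deep inside the gene, 144704 bp from the start site, and none within 1 kb of that site. Rorb, a gene of retina and brain, had none, and the nearest summit lay 108325 bp away.

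Nr1d1 overlaps Thra, the gene of thyroid hormone receptor alpha, so the pair shared 3 of its peaks. Thra had 7 in all, with a strongest of 8.56 at a summit inside the gene. Thrb, which encodes thyroid hormone receptor beta, had no peak in its 380873 bp, and the nearest summit, 199153 bp away, was that of Nr1d2. Vdr, the vitamin D receptor gene, had 3 peaks with a strongest of 5.86 inside the gene and 4.15 at 294 bp before its start site.

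Genes of the classical oestrogen and steroid receptors had strongest peaks of 3.99 to 6.59, below the median of 6.65 over receptor genes with a peak. Esr1 and Esr2, the oestrogen receptor genes, had 1 peak each, of 5.12 at 15322 bp after the start site and of 6.02 at 713 bp before it. Pgr, the progesterone receptor gene, had 1 of 3.99, and Nr3c2, the mineralocorticoid receptor gene, had 1 of 4.64 at 190 bp before its start site. Nr3c1, which encodes the glucocorticoid receptor, had 4 peaks from 3.90 to 6.59, all inside the gene. Of the oestrogen-related orphan receptors, Esrra, a regulator of mitochondrial genes, had 4 peaks with a strongest of 9.58 at 392 bp before the start site. Esrrg had 1 peak of 4.64 outside the gene and none along its 606376 bp.

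Among the oxysterol, bile acid and xenobiotic sensors, both liver X receptor genes had peaks, and the strongest of Nr1h2 and Nr1h3 ranked 8 and 15. Nr1h2, the beta gene, had a strongest of 11.2 on chromosome 7 at 44548316 to 44549145, with 45 tags (32.8 to 60.2) and a −log10 q of 33.1, but this summit lay nearer to Pold1, and the one at its own start site had 6.61. Nr1h3, the alpha gene, had 8.77 at a summit nearer to Madd and 7.22 at 27 bp inside its 5′ end, 7686 bp before its nearest listed start site. The bile acid receptor gene Nr1h4 had 1 peak of 4.88. The xenobiotic receptor genes had little, with 2.83 and 3.50 at Nr1i3, both nearer to another gene, and none at Nr1i2, where the nearest summit, of 4.76, lay 10180 bp away.

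The NR2 orphan receptor genes ranged from no peak to 10.8. Nr2e1, which encodes the neural stem cell factor TLX, had its strongest on chromosome 10 at 42591418 to 42592702, 8911 bp before the start site, with 10.8, 45 tags (32.8 to 60.2) and a −log10 q of 32.2. Nr2f6 had 10.6 on chromosome 8 at 71371166 to 71371696, with 46 tags (33.7 to 61.4) and a −log10 q of 32.3, at a summit nearer to Ocel1, and 7.01 at 389 bp before its own start site. Its relatives Nr2f1 and Nr2f2, the COUP-TF genes of neural and mesodermal development, had 2 peaks up to 3.93 and 3 up to 4.88, none within 1 kb of a start site. The testicular receptor genes Nr2c1 and Nr2c2 had 4 and 1, with 6.72 and 6.35 at their start sites as the strongest. The retinal factor gene Nr2e3 had 2, up to 7.32, nearer to Thsd4. Hnf4g had none, and the nearest summit lay 301599 bp away.

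In the last families, Nr6a1, which encodes germ cell nuclear factor, a repressor of Pou5f1 during differentiation, had 4 peaks. The strongest, on chromosome 2 at 38925104 to 38927364, had a fold enrichment of 11.3, 58 tags (44.0 to 75.0) and a −log10 q of 41.5, and its summit lay 308 bp before the start site. Nr5a1, the steroidogenic factor gene beside it, had 3 peaks up to 4.38, and that one was shared with Nr6a1. Nr0b2, which encodes a receptor without a DNA-binding domain, had 1 of 4.97 nearer to Nudc.

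The counting error of the pileup limits this order. The Poisson interval at the strongest Rarg peak (88.6 to 130 tags) lay above that at Nr1d2 (44.9 to 76.1), while the interval at Nr1d2 overlapped those at the strongest peaks of the other 10 members named with an interval. These intervals cover counting error only, and a summit is by construction the highest point of its peak.

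Of the 38 members with listed start sites, 22 had a summit within 1 kb of one (57.9%, interval 40.8 to 73.7), against 51.7% of all protein-coding genes with listed start sites. Hnf4g, Nr3c1, Nr5a1 and Thra were placed by the gene body alone. Summits within 1 kb of a start site made up 32 of the 133 pairs of those 38 members (24.1%, interval 17.1 to 32.2). The matching share of pairs over all genes was not computed, so a preference of receptor peaks for start sites cannot be judged from it. The median fold enrichment of these 32 pairs was 6.08, with a maximum of 14.6. Among the rest of all 147 pairs, median and maximum were 5.25 and 24.4 elsewhere inside genes and 4.97 and 12.5 outside genes. Those pairs include peaks of genes without a listed start site. The strongest peak was at a start site in 12 of the 38 members with a peak. It was elsewhere inside the gene in 14 and outside it in 12. Of these members with a peak, Thra, Nr3c1 and Nr5a1 have no listed start site. The same split was not computed over all genes. Of all 56 start sites listed for members, 27 had a summit within 1 kb, against 10675 of 21263 start sites of all protein-coding genes. Among members with several listed sites, Pparg, Rara, Rxra and Nr6a1 each had at least 1 site with and 1 without. At Rarg and Rxrb every listed site had a summit, and at Rxrg, Esrrg, Nr1h3, Esr1, Nr2f1, Thrb and Rorb none did.

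Receptor start sites with a summit had more CpG dinucleotides in the 250 bases before them. The median was 17 at the 27 sites with a summit (range 4 to 44) and 6 at the 29 without (range 1 to 30), against medians of 17 and 3 at all listed start sites of protein-coding genes. Sites of a gene are counted singly and are not independent. The Rara sites at 98937696 and 98937718, for example, share a summit and most of their sequence. Among receptor sites with 0 to 4 CpG, 1 of 14 had a summit, against 8.55% of all such sites, and the 1 was that of Nr6a1. With 5 to 16 CpG there were 12 of 23, against 59.7%, and with 17 or more there were 14 of 19, against 84.4%. The 5 CpG-rich receptor sites without a summit belonged to Thrb (30), Rora (26), Esrrg (22), Nr2f1 (22) and Rorb (18).

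**Figure D4:**
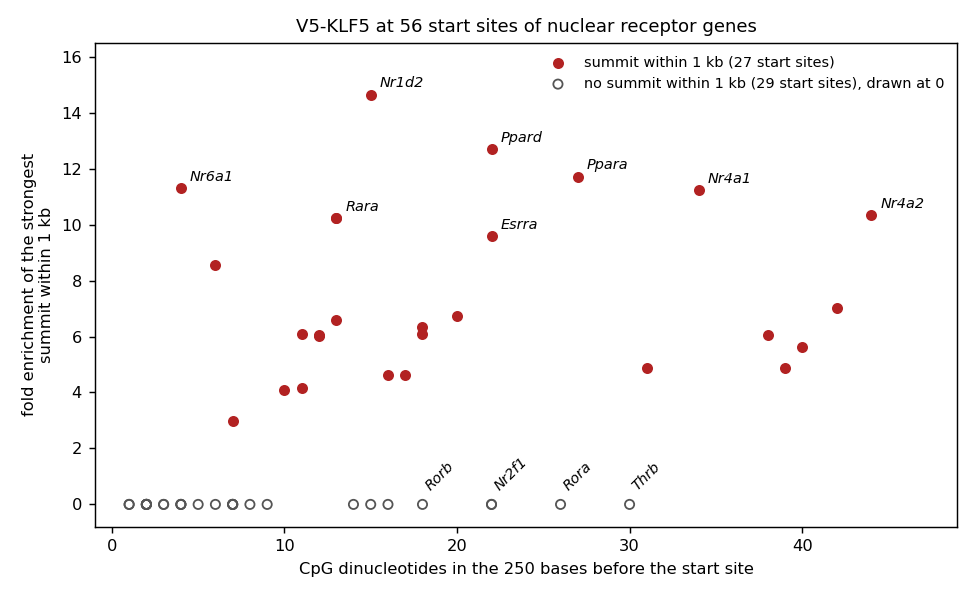
Fold enrichment of the strongest summit within 1 kb against the number of CpG dinucleotides in the 250 bases before each of 56 receptor start sites; filled points have a summit and open points, drawn at 0, have none. Most open points lie at or below 16 CpG, apart from those of Thrb, Rora, Esrrg and Nr2f1 (which coincide at 22) and Rorb.

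The letters CCACCC or CCGCCC, searched on both strands, stood in that stretch at 23 of the 27 receptor sites with a summit (85.2%) and 13 of the 29 without (44.8%). Over all protein-coding start sites these shares were 77.6% and 36.3%. CCGCCC was the more frequent, at 20 of 27 sites with a summit (74.1%), and CCACCC stood at 12 (44.4%). Over all protein-coding start sites with a summit the order was the same, with 66.6% and 35.7%. The promoters printed above show sites of both kinds. Ppard, Nr1d2 and Nr4a1 each hold 3 CCGCCC, and Rara holds 4 with 1 CCACCC. Thrb, without a peak, holds 3 CCGCCC, a pair of which overlap, Rorb holds 2, and Nr1i2 holds none. AGGTCA, the core letters many nuclear receptors bind, stood at 9 of 56 receptor sites (16.1%) and 12.8% of all sites. A match describes letters only, not a bound site.

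Genes that work with the receptors were looked at as lists chosen by name. The values of all genes set beside these lists were not weighted by gene length. All 22 coregulator genes had a peak, against 70.5% of all genes, with a median strongest fold enrichment of 8.73, against 7.71. Of them, 8 (36.4%) reached 10, against 22.2% of all genes. The strongest were Ncoa7, an oestrogen receptor-associated coactivator gene, with 42.4, the corepressor gene Ncor1 with 16.3, the helicase gene Ddx5 with 12.1, the coactivator gene Ncoa6 with 11.9 and Nrip1, which encodes a ligand-dependent corepressor, with 11.2. The Ncoa7 peak, with 212 tags, thus had a higher fold enrichment than any receptor peak. The one counted for Ncoa6 lay nearer to Trp53inp2.

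Of 16 genes that take up, make, bind or break down retinoids, 15 had a peak (93.8%), against 70.5% of all genes. Their median strongest fold enrichment was 6.21, against 7.71 for all genes with a peak, and 2 of the 16 (12.5%) reached 10, against 22.2% of all genes. Among the strongest were the retinol dehydrogenase gene Rdh11 with 13.3, at a peak nearer to Vti1b, the retinaldehyde dehydrogenase gene Aldh1a2 with 10.5, the retinoic acid hydroxylase gene Cyp26b1 with 9.46 and Aldh1a3 with 7.08. Rbp4, the plasma carrier gene, had none.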

How the data were processed

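Peak lists deposited for the 3 immunoprecipitates were used as they are. Per the file headers, MACS2 2.1.0.20140616 called them on single libraries against input, with tags of 51 bp extended to 250 bp, 1 tag kept per position and a q-value cutoff of 0.05. Per the submitters' processing notes the build was mm10. For each peak the authors deposited the pileup signal at the summit (whole numbers of extended tags), a fold enrichment, which is a ratio over input, and p-value and q-value as −log10. The input background was computed as (pileup + 1) over fold enrichment, minus 1, and has a floor of 3.1. The treatment of reads with several matches was not stated in the labels or headers.

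A peak was counted at a gene where its summit lay inside it or within 10 kb. Gene ends, start sites and sequences came from RefSeq (GRCm38.p6), whose gene table matched 42 of 42 members and gives no exons, and whose promoter table matched 38. Coordinates are 1-based. A start site counted as marked within 1 kb. No p-value was computed, since each group is 1 library. Intervals are exact at 95% and cover counting error only. Members and lists were chosen with earlier results of these data known, and the CpG counts, the autosomal share and the share of genes with curated transcripts were added after the peaks were seen. Position, pileup and −log10 q are given for the 12 members with the strongest peaks, and the fold enrichment for every other member. Of the coregulator and retinoid lists, the 5 genes with the strongest peaks and any without a peak are named, apart from 1 retinoid gene that is not reported here. Peak assignment was tested on simulated data. Python 3.11.15, pandas 2.3.3, numpy 2.4.6 and scipy 1.17.1 were used.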

Additional observations from a re-analysis of the deposited data

How the results depend on the processing

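The count of receptor genes with a peak (38) ran from 26 to 39 over 8 alternatives, and at each of them it was within 1.5 times the count given. As a percentage it stayed above the share of all genes in each, for example 61.9% against 54.6% at a −log10 q of at least 10. These shares of all genes were not weighted by gene length, so whether the order holds at the receptors' lengths was not tested. The number of gene and peak pairs was 296 with a window of 50 kb, 87 inside genes only, 71 at a −log10 q of at least 10 and 76 at a fold enrichment of at least 5, against 147. The median strongest fold enrichment was 10.2 with a window of 50 kb, against 10.0 for all genes, and 28.5 tags when pileup replaced fold enrichment, which is another scale. Receptor genes with a peak of at least 10 numbered 21 with a window of 50 kb and 6 inside genes only, against 13. The share of all genes with such a peak was not computed under these settings. Retinoid handling genes with a peak numbered 9 of 16 at a −log10 q of at least 10, against 15. At that cutoff 54.6% of all genes had a peak. The share of all genes with a peak was 73.0% on autosomes and 72.5% among genes with a curated transcript, both chosen after seeing the data. Wider windows add sequence and stricter cutoffs remove peaks by construction. Leaving out a replicate was not possible, because each group has 1 library, and no difference here has been checked against a second culture.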
